A study of Homo sapiens with 4 samples.

Results

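The isoleucine tRNAs were followed as the references whose name begins with Ile, 3 of the 48 tRNA references in the data. They were Ile-AAT-8-1, Ile-GAT-1-1 and Ile-TAT-3-1, named for their anticodons AAT, GAT and TAT in DNA letters. Every nucleotide with a canonical tRNA position was kept, 77 in each reference, so that 231 of the 3621 numbered nucleotides of all references were isoleucine sites. The references were chosen by name. The 5 positions set side by side in WT (26, 27, 34, 37 and 47), and the choice to give deletions apart, were made with earlier results of these data known. The WT levels at those positions are therefore given as a description with no test.

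Transfer RNA came from HCT116, an established line of human colorectal carcinoma, in an unmodified form (WT) and with TRMT1L knocked out (TRMT1L KO), with 2 libraries of each genotype and no treatment. The series asks which tRNA modifications depend on TRMT1L, a relative of the guanosine methyltransferase TRMT1. The tRNA was isolated on an ion exchange column, deacylated and sequenced as native RNA in a nanopore (Nano-tRNAseq). Nothing in the labels tells whether replicates were grown as separate cultures or whether the knockout is 1 clone, so a p-value here covers the spread between 2 libraries, which may be purely technical.

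The base caller's mistakes were recorded at each nucleotide as 3 rates, the shares of mismatched, deleted and inserted bases. Their sum is the summed error. A modified base can raise or lower any of them, and neither the modification nor its amount can be read off the rate. Rates are given in percent and differences in percentage points, TRMT1L KO minus WT. No read depth is known for any value. TRMT1L itself was not measured. Over all references, the WT libraries had mean deletion rates of 10.4% and 10.6% and the KO libraries of 11.03% and 11.1%. No site had an equal summed error in any 2 libraries.

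An isoleucine tRNA carries isoleucine to the ribosome and reads the codons AUU, AUC and AUA. In human cytosol most of the reading falls to tRNAs with the anticodon AAT, whose first anticodon base, position 34, is deaminated to inosine by the ADAT2 and ADAT3 enzyme so that it pairs with all of these codons. tRNAs with the anticodon TAT are made from genes with an intron, carry pseudouridine in the anticodon and read AUA, and the anticodon GAT is rare among human genes. Position 37, beside the anticodon, carries a threonylcarbamoyl group on adenosine in tRNAs that read codons beginning with A. Position 26, at the hinge between the D arm and the anticodon arm, is the usual site of dimethylguanosine placed by TRMT1, and position 27 beside it is a site of pseudouridine in many tRNAs and of TRMT1L's dimethylguanosine in tyrosine tRNA, per the series title. Position 47, in the variable region, is a site of dihydrouridine.

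All 3 names matched a RefSeq gene. TRI-AAT8-1 belongs to a family of 14 tRNA genes and 3 pseudogenes with its anticodon, TRI-GAT1-1 to 3 genes and TRI-TAT3-1 to 5. The genes are 74 bases long for AAT and GAT and 94 for TAT, whose intron is removed. The sheets hold no bases, so the names could not be checked against sequence, and no position is split by base.

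Taken over its whole length, each isoleucine reference had an error at or above the middle of all references. The mean summed error of Ile-AAT-8-1 was 33.4% and 33.6% in WT and 34.7% in both KO libraries. Ile-GAT-1-1 had 34.9% and 34.7% in WT and 35.6% and 35.3% in KO. In Ile-TAT-3-1 the values were 32.95% and 32.7% in WT and 33.6% and 33.5% in KO. By the WT mean, GAT ranked the highest of the 48 references, AAT was number 10 and TAT number 18, while the references of other amino acids ran from 22.5% to 34.5% with a median of 31.7%. Mismatches made up 60.3% of the WT error in GAT, 56.2% in AAT and 55.5% in TAT. Deletions made up 30.8%, 36.04% and 37.8%, with a median of 34.03% in the other references.

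The references also differed in how well the replicates matched. The SD of the summed error between the WT libraries had a median over positions of 2.20 points in Ile-GAT-1-1, the largest of the 48 references, against 1.27 in Ile-AAT-8-1 and 1.01 in Ile-TAT-3-1. In KO the medians were 1.62, 1.81 and 0.976 points. In the 13 nucleotides of the 3' adaptor read with each isoleucine reference, the mean summed error with Ile-AAT-8-1 was 26.6% and 21.99% for WT against 22.4% and 24.3% for KO, so the genotypes overlapped outside the tRNA.

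**Figure D1:**
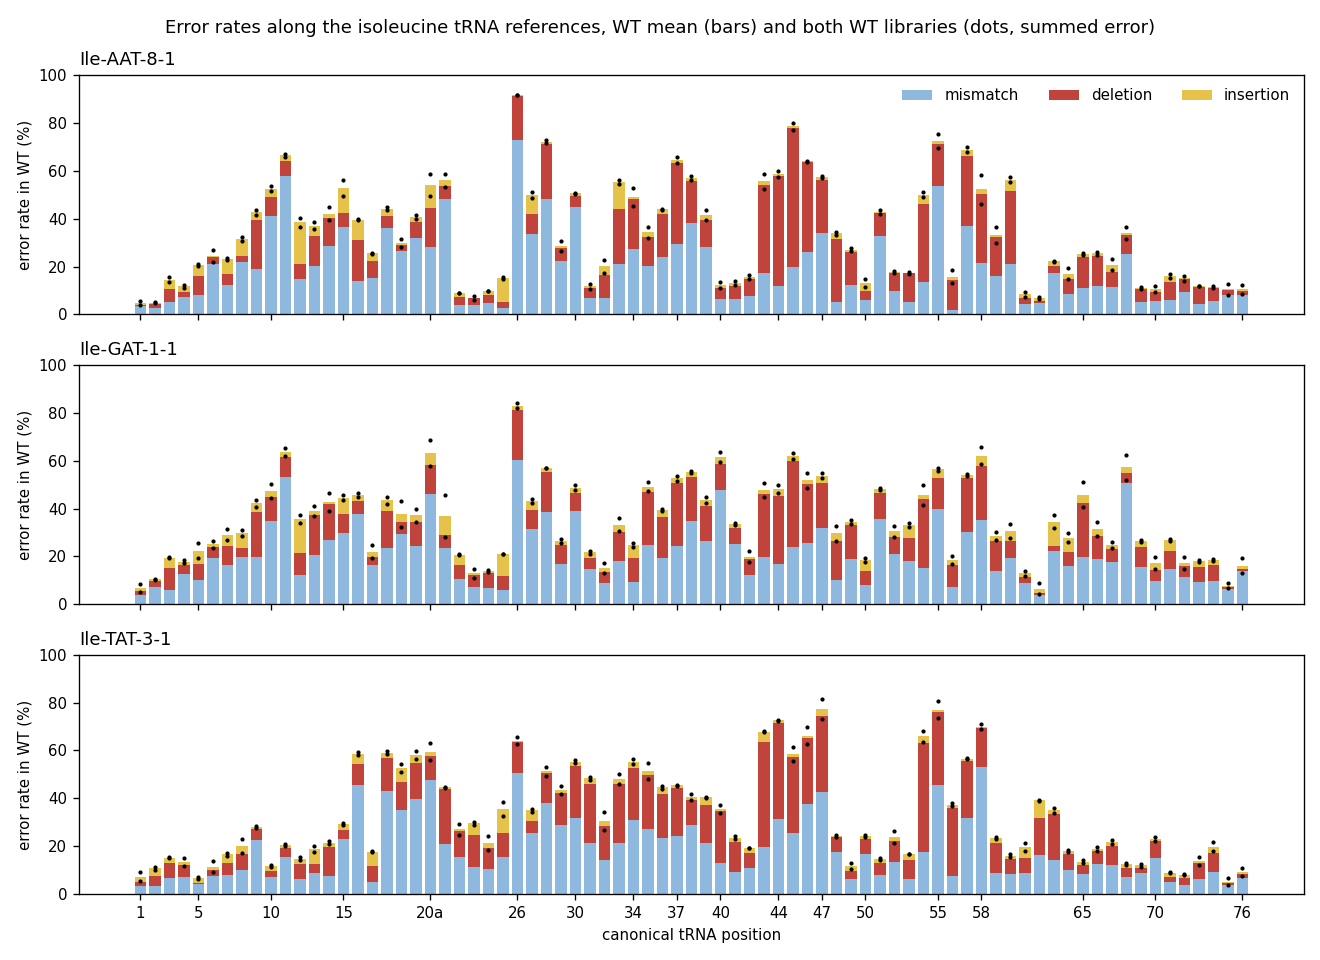
Error rate in WT (percent, vertical axis) along the canonical positions (horizontal axis) of the 3 isoleucine references. Bars are the mean of 2 libraries, stacked by kind of error, and dots are the summed error of each library; position 26 is the highest bar of Ile-AAT-8-1 at 91.7% and of Ile-GAT-1-1 at 82.95%, and position 47 is the highest of Ile-TAT-3-1 at 77.2%.

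At position 26 Ile-AAT-8-1 and Ile-GAT-1-1 lay in the upper part of all references in WT, and Ile-TAT-3-1 near the middle. The summed error was 91.6% and 91.8% in the WT libraries of Ile-AAT-8-1, 81.7% and 84.2% in Ile-GAT-1-1 and 62.6% and 65.5% in Ile-TAT-3-1. The order AAT, GAT, TAT held in both libraries with no overlap. The means of 91.7% ± 0.104, 82.95% ± 1.71 and 64.04% ± 2.01 (SD, n = 2) ranked 3, 8 and 23 of 48, and the other references had a median of 55.3% and a range from 9.17% to 95.6%. Most of this error was mismatch, with WT means of 72.99%, 60.1% and 50.5%. The mean deletion rates in WT were 18.1%, 21.1% and 12.9%, and insertion rates were at most 2.18% in any WT library.

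Position 27 gave lower values and the same order. The summed error was 48.6% and 50.99% in Ile-AAT-8-1, 43.9% and 42.3% in Ile-GAT-1-1 and 34.1% and 35.8% in Ile-TAT-3-1, all below the median of 54.04% in the other references. The AAT reference had many insertions there, 9.35% and 6.62%, which ranked 3 of 48 by the mean. The next nucleotide, position 28, stood higher among the references. Its WT mean of 72.2% ± 1.02 (SD, n = 2) in AAT ranked 5, that of 57.1% ± 0.0119 in GAT ranked 8 and that of 51.2% ± 2.85 in TAT ranked 11, against a median of 23.4% elsewhere. Positions 27 and 28 are both known pseudouridine sites.

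The first anticodon base separated the GAT reference from the others. At position 34 the summed error was 56.4% and 54.1% in Ile-TAT-3-1, 45.2% and 52.7% in Ile-AAT-8-1, and 25.7% and 23.9% in Ile-GAT-1-1. No libraries of different references overlapped, although the AAT libraries lay 5.32 points apart as an SD. The base in question differs between the references by their anticodons, and in the AAT reference it is the base that ADAT2 and ADAT3 deaminate. GAT had the lowest mismatch rate of the set, 11.9% and 7.03%, and the lowest deletion rate, 9.41% and 10.4%. Its insertion rate of 4.46% and 6.42% ranked 3 of 48 by the mean, whereas AAT had 0.724% and 0.685%.

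At position 37 the order was again AAT, GAT, TAT. The summed error was 63.4% and 65.7%, 51.6% and 53.6%, and 45.8% and 45.03%, with ranks of 13, 22 and 29 of 48 and a median of 48.4% in the other references. The difference lay in deletions more than in mismatches. Mismatch rates averaged 29.3% in AAT, 24.4% in GAT and 24.5% in TAT. Deletion rates were 32.6% and 34.97% in AAT, 24.8% and 28.01% in GAT, and 18.1% and 21.6% in TAT, with no overlap, and AAT ranked 7 of 48.

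Position 47, which 30 of the references have, had the order TAT, AAT, GAT, as at position 34. Ile-TAT-3-1 had 73.03% and 81.4%, the second rank of 30, while Ile-AAT-8-1 had 57.95% and 56.8% and Ile-GAT-1-1 54.7% and 52.5%, both a little under the median of 58.96% in the other references. The TAT reference was higher in mismatches, at 40.6% and 44.5%, and in deletions, at 30.1% and 33.7%. Its WT libraries differed by an SD of 5.93 points, the widest of the 15 isoleucine values at these positions. In KO the order of the references at all 5 positions was the same as in WT, again without overlap between them.

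**Figure D2:**
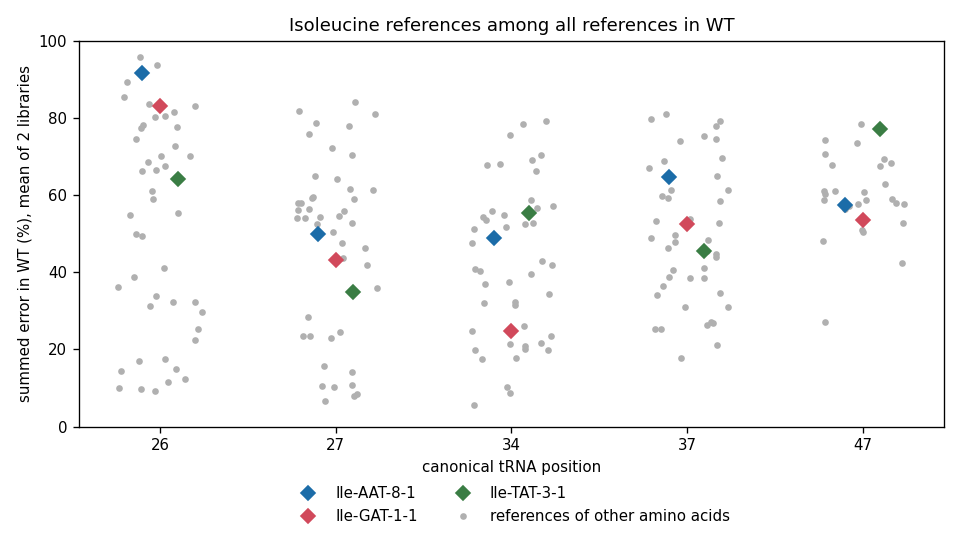
Mean summed error of the 2 WT libraries (percent, vertical axis) at positions 26, 27, 34, 37 and 47 (horizontal axis), with the isoleucine references as coloured diamonds and the references of other amino acids as grey points. At position 26 Ile-AAT-8-1 and Ile-GAT-1-1 lie high, at 91.7% and 82.95%, and Ile-TAT-3-1 lies near the middle at 64.04%. At position 34 the isoleucine references spread widely, from 24.8% to 55.3%.

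The isoleucine references also shared a region of high error in the variable region, positions 44 to 48, position 47 included. Only 27 of the 45 other references have position 47, so the sets of sites compared differ in make-up in this region. The median WT summed error over the 15 isoleucine sites there was 58.6%, against 38.9% over the other references, and the median deletion rate was 28.1% against 12.4%. Deletions peaked at its start. At position 45 the WT libraries of Ile-AAT-8-1 had 59.1% and 56.3%, the highest of the 39 references that have this position, with 34.9% and 37.6% in Ile-GAT-1-1 and 30.5% and 33.1% in Ile-TAT-3-1. At position 44 AAT had 44.6% and 46.4%, rank 1 of 48, and TAT had 39.4% and 40.9%, rank 6. At position 43, the last of the anticodon stem, TAT held rank 1 with a mean of 43.8% ± 2.26 (SD, n = 2). Where neighbouring bases are the same, a deletion has no unique place among them. The bases of this stretch are not known here, so single nucleotides within it may be less certain than the stretch.

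AAT and GAT shared a second region in the D stem that TAT lacked. At position 11 the WT summed error was 65.9% and 66.8% in Ile-AAT-8-1, rank 1 of 48, and 61.9% and 65.2% in Ile-GAT-1-1, rank 5, but 20.8% and 20.0% in Ile-TAT-3-1. At position 10, a site of methylguanosine placed by TRMT11 in many tRNAs, they had means of 52.5% and 47.3% and TAT had 11.6%, with a median of 20.04% elsewhere. Both also had the most frequent insertions of the family at position 12, with WT means of 17.4% in AAT, rank 1 of 48, and 13.9% in GAT. In the T loop all 3 references had high errors. At position 55, a site of pseudouridine in nearly all tRNAs, the WT means were 76.99% in TAT, 72.2% in AAT and 56.3% in GAT, with a median of 73.2% in the other references. At position 58, a site of methyladenosine, they were 69.99%, 52.3% and 61.98%, all under the median of 72.5%. The deletion rate of TAT at position 54 was 45.6%, rank 3 of 48.

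Some sites set single references apart. Position 40, in the anticodon stem, had a WT summed error of 59.3% and 63.7% in Ile-GAT-1-1, 37.4% and 33.7% in Ile-TAT-3-1 and 13.5% and 11.2% in Ile-AAT-8-1. With 49.2 points, it was the widest difference between AAT and GAT at any position. Position 60 separated AAT, at 55.1% and 57.3%, from GAT at 33.5% and 27.6% and TAT at 15.7% and 16.7%. Deletions there had a mean of 30.5% in AAT and of 6.79% and 6.32% in GAT and TAT. They accounted for 23.7 of the 25.6 points between AAT and GAT and for 24.1 of the 40.02 points between AAT and TAT. Position 68, in the acceptor stem, stood at a WT mean of 57.2% ± 7.39 (SD, n = 2) in GAT, 33.9% ± 3.55 in AAT and 12.5% ± 0.557 in TAT.

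Over all 77 positions the AAT and GAT profiles were the most alike. Pearson's r of the WT mean summed error was 0.841 between them, 0.660 between AAT and TAT and 0.592 between GAT and TAT. The median absolute difference was 5.96, 12.3 and 13.04 points, and 7, 17 and 19 positions differed by more than 20 points. Positions of a reference share libraries and reads, so these are descriptions. Of the references of other amino acids, those closest to Ile-AAT-8-1 were Phe-GAA-2-1 with r = 0.768 over 76 positions, Leu-TAA-1-1 with 0.714 and Ala-CGC-2-1 with 0.684. Ile-GAT-1-1 was closest to Ala-CGC-2-1 with 0.663, Phe-GAA-2-1 with 0.655 and Ala-TGC-3-1 with 0.626. Those closest to Ile-TAT-3-1 were Arg-TCT-1-1 with 0.711, Ser-AGA-2-5 with 0.676 and Val-AAC-1-4 with 0.670. Medians over the other references were 0.486, 0.450 and 0.449. Reads of similar references can be assigned to each other, and how far this happened between AAT and GAT was not tested.

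Between KO and WT, no isoleucine site passed the test for a change of the summed error. Each kind of error was tested with limma on the arcsine square root of the rate over all 3621 sites, with Benjamini-Hochberg adjustment over all of them and a threshold of 0.05. For the summed error 0 of the 231 isoleucine sites passed, where 0.608% of all sites did. The lowest adjusted p was 0.185. An unadjusted p under 0.05 was found at 22.1% of the AAT sites, 19.5% of the GAT sites and 7.79% of the TAT sites. Together these were 38 sites (16.5%), where all references had 9.36%. The count depended on single libraries, since some sites passed when WT replicate 1, WT replicate 2 or TRMT1L KO replicate 2 was left out. Both KO libraries lay above both WT libraries at 79 sites (34.2%) and below them at 27 (11.7%), where all references had 30.9% and 7.93%. With 2 libraries against 2, a single site cannot go below p = 0.333 in a two-sided exact permutation test.

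The largest differences that did not overlap between genotypes are given as values, since they did not pass. At position 29 of Ile-GAT-1-1, in the anticodon stem, the summed error was 27.4% and 25.5% in WT and 35.8% and 33.4% in KO, 8.14 points higher (limma adjusted p = 0.185). The AAT reference at the same position had 30.7% and 26.6% in WT and 35.9% and 33.8% in KO. At position 73 of Ile-AAT-8-1 the WT libraries had 11.9% and 11.8% and the KO libraries 25.1% and 14.8%, so that the difference of 8.09 points rested on KO replicate 1. Position 5 of Ile-GAT-1-1 differed by 8.06 points, from 25.6% and 19.3% to 29.3% and 31.7%.

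The largest decreases without overlap were at 3 sites of the D arm. Of its 51 isoleucine sites 27 were higher in KO, with a median difference of 0.645 points. In the other references a larger share was higher there, 478 of 717 sites, with a median of 0.640 points. Position 18 of Ile-GAT-1-1 had 44.9% and 41.8% in WT and 34.3% and 34.8% in KO, which is -8.81 points (limma adjusted p = 0.202). At position 11 the differences were -7.83 points in GAT and -5.86 in AAT, the D-stem site at which both stood out in WT, and 4.01 in TAT. In each of the 3 references the libraries of the genotypes did not overlap there.

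Mismatches gave a like result. With 0 isoleucine sites passing, where 0.552% of all sites did, the lowest adjusted p was 0.175 at position 29 of Ile-GAT-1-1. The unadjusted p was under 0.05 at 36 sites (15.6%), where all references had 6.99%. By reference the share was 23.4% in AAT, 16.9% in GAT and 6.49% in TAT. The mismatch SD between the WT libraries had a median of 1.24 points over the isoleucine sites and 0.878 over all sites. Here, too, some sites passed when TRMT1L KO replicate 2 or WT replicate 1 was left out. The largest decrease was at position 11 of Ile-GAT-1-1, with 50.5% and 55.4% in WT and 38.9% and 46.96% in KO, which is -10.0 points (limma adjusted p = 0.246). The libraries were apart and higher in KO at 59 sites, where all references had 25.4%, and apart and lower at 37 (16.0%), where they had 10.9%.

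Mismatches at position 26 were less frequent in KO in all 3 references, and none of the differences passed. The mismatch rate was 73.3% and 72.6% in WT and 68.3% and 67.2% in KO in Ile-AAT-8-1. It was 60.2% and 60.1% against 56.5% and 56.3% in Ile-GAT-1-1, and 48.6% and 52.4% against 45.3% and 46.97% in Ile-TAT-3-1. The genotypes did not overlap in any of them, and the differences of -5.22, -3.71 and -4.33 points had limma adjusted p of 0.456, 0.735 and 0.723. Both KO libraries lay below both WT libraries in this way at 10.9% of all sites. The 3 references were read in the same libraries and are not replicates of each other. Against the other references at position 26, the difference in AAT was -6.96 points (limma adjusted p = 0.0927). The mean of those 45 references includes 2 that passed the test with a rise of mismatches at position 26. Mismatches there were higher in KO at 22 of the 45, by up to 53.1 points. The median difference over the 45 was -0.0349 points. Deletions at position 26 were 17.7% and 18.5% in WT and 20.8% and 22.2% in KO in AAT, and its summed error differed by -1.78 points. In GAT the deletion rates overlapped, with 19.3% and 22.8% against 20.9% and 21.2%, and the summed error differed by -4.17 points. In TAT deletions were 12.98% and 12.8% against 15.5% and 14.1%, and the summed error differed by -2.01 points.

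At the other 4 positions of the comparison no difference passed either. At position 27, the site TRMT1L is known for in tyrosine tRNA, the mismatch rate was 31.2% and 35.6% against 35.2% and 32.6% in AAT, 32.2% and 30.3% against 29.6% and 23.1% in GAT, and 25.4% in both WT libraries against 21.2% and 21.3% in TAT. Only AAT overlapped there, and the TAT difference was -4.18 points (limma adjusted p = 0.563). At position 34 the summed error in KO was 54.3% and 49.5% in AAT, 27.4% and 28.1% in GAT and 57.1% and 56.2% in TAT, which overlapped with WT in AAT and TAT. At position 37 it was 60.7% and 61.9%, 50.96% and 50.8%, and 46.9% in both TAT libraries. At position 47 the mismatch rate of AAT was 35.3% and 32.9% in WT and 30.0% and 27.6% in KO, with a limma adjusted p of 0.549.

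**Figure D3:**
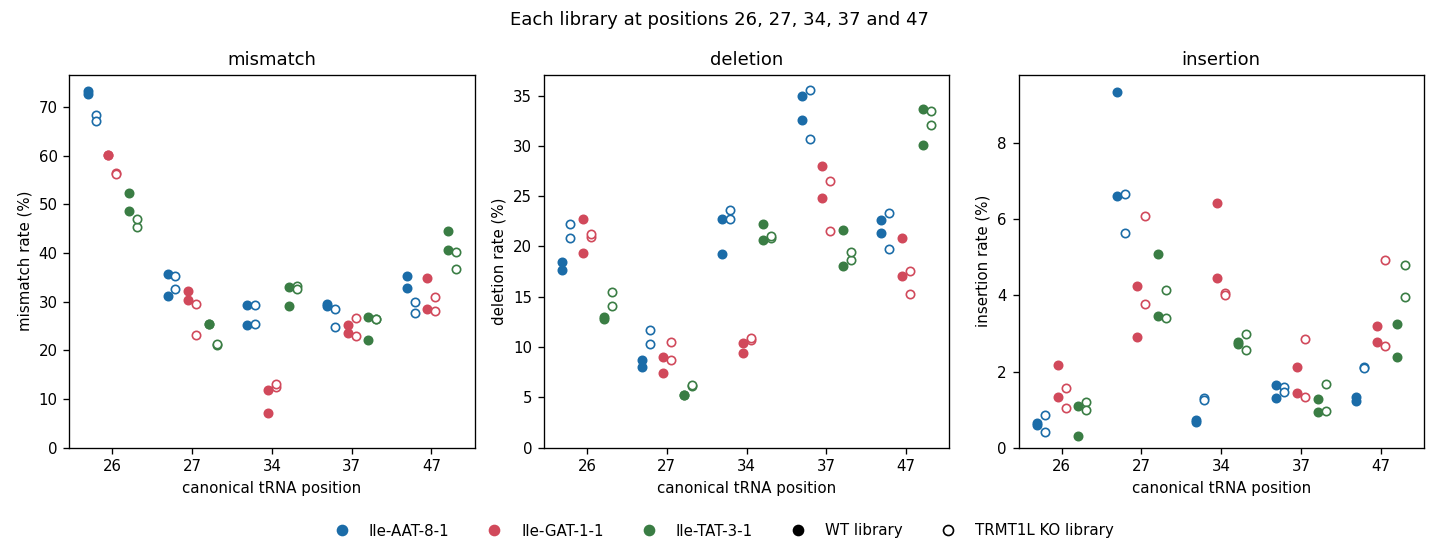
Mismatch, deletion and insertion rate (percent, vertical axes with different ranges) at positions 26, 27, 34, 37 and 47 (horizontal axis) in each library, with WT as filled and TRMT1L KO as open circles, coloured by reference. At position 26 the open mismatch circles lie below the filled ones in every reference, as at 10.9% of all sites. The means differ by 3.71 to 5.22 points, and none of these differences passed the test.

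Insertions did not differ past the threshold at any isoleucine site. With 0 of 231 passing, where 0.0829% of all sites did, the lowest adjusted p was 0.628 and 22 sites (9.52%) had an unadjusted p under 0.05, against 5.69% of all sites. At position 12, the peak of insertions in WT in both, Ile-GAT-1-1 differed by -3.93 points and Ile-AAT-8-1 by -3.43, the largest differences without overlap of the libraries. Position 3 of Ile-GAT-1-1 differed by 3.45 points with overlap, from 6.03% and 2.74% to 10.2% and 5.46%. The libraries were apart and higher in KO at 44 sites (19.05%), where all references had 16%, and apart and lower at 37, where they had 17.2%.

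Deletions, given apart, were the kind of error in which isoleucine sites passed. They rose at 7 sites and fell at none, which is 3.03% of the 231 sites, where 1.19% of all sites passed, 0.58% rose and 0.608% fell. Since deletions were set apart with earlier results known, nothing is read from this count. An unadjusted p under 0.05 was found at 48 sites (20.8%), and at 11.4% of all sites. The sites were positions 4, 6 and 7 of Ile-AAT-8-1, positions 1, 5 and 12 of Ile-GAT-1-1 and position 11 of Ile-TAT-3-1. By region, 5 lay among the 42 isoleucine sites of the acceptor stem, where the other references had 4 increases and no decrease at 630 sites. The other 2 lay among the 51 of the D arm, where the other references had 6 increases and 16 decreases at 717 sites.

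In the acceptor stem of Ile-AAT-8-1 the increases were from low rates. Position 4 had 2.04% and 2.54% deletions in WT and 4.50% and 4.38% in KO, 2.15 points higher (limma adjusted p = 0.0317). Position 6 had 2.37% and 3.22% against 6.26% and 5.75%, a difference of 3.21 points (limma adjusted p = 0.00554). At position 7 the rates were 3.66% and 5.47% against 10.7% and 7.41%, or 4.49 points (limma adjusted p = 0.0328). At this last site the KO libraries lay farther apart from each other than the WT libraries did. Position 5, between them, was 2.89 points higher and did not pass, with an adjusted p of 0.265.

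The GAT reference held the lowest adjusted p and the largest increase, but also the widest spread. Between its WT libraries the SD of the deletion rate had a median over positions of 1.15 points. It was 0.636 in AAT, 0.648 in TAT and at most 1.09 in a reference of another amino acid. The test moderates the spread of a site over all sites, whose median was 0.608 points, so the spread in GAT may be understated. At position 1, the first base of the tRNA, deletions were 2.18% and 0.935% in WT and 4.58% and 5.24% in KO, a rise of 3.36 points (limma adjusted p = 0.00104). At position 5 they rose by 5.13 points, from 7.02% and 5.83% to 11.1% and 12%, with an adjusted p of 0.00736. Position 12, in the D stem, rose by 6.62 points, from 9.52% and 8.86% to 14.8% and 16.9%, with an adjusted p of 0.00361. The summed error at position 12 did not follow, at 35.6% ± 2.20 in WT and 36.5% ± 0.461 in KO (SD, n = 2), and insertions there were 3.93 points lower. In Ile-TAT-3-1 position 11 had 4.005% and 3.31% in WT and 6.45% and 6.39% in KO, a rise of 2.76 points (limma adjusted p = 0.0423).

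**Figure D4:**
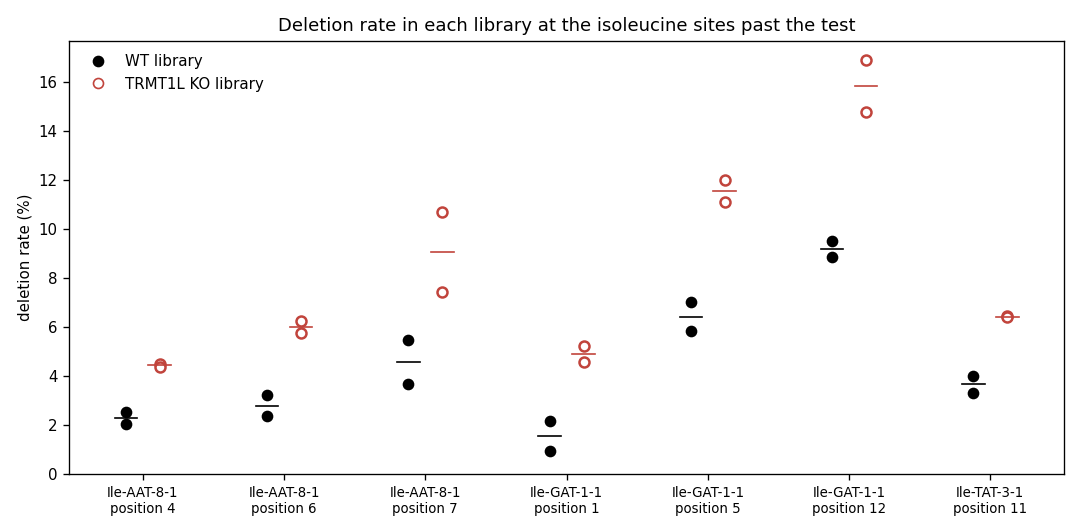
Deletion rate (percent, vertical axis) in each library at the 7 isoleucine sites past the threshold (horizontal axis), with WT as filled and TRMT1L KO as open circles and lines at the means. Both KO libraries lie above both WT libraries at each site, as at 35.5% of all sites, and position 12 of Ile-GAT-1-1 reaches 14.8% and 16.9% in KO. The sites were chosen by the test on these same libraries, so their separation is no further evidence.

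These calls differed in how they held. Positions 1 and 12 of Ile-GAT-1-1 passed under all alternatives that could be run for them, 11 and 12 in number, with the limma adjusted p between 2.88e-08 and 0.0482 over both. Position 5 of GAT passed under 9 of 11, position 6 of AAT under 9 of 12, position 7 under 6 of 12, position 4 under 5 of 11, and position 11 of TAT under 4 of 12. Of the 7 sites, 3 passed without WT replicate 1, 5 without WT replicate 2, 4 without TRMT1L KO replicate 1 and 5 without TRMT1L KO replicate 2. With each library centred on its own median, which removes the higher overall level of the KO libraries, 4 of the 7 passed. With the replicate number as a block 11 isoleucine sites passed, these 7 among them. With replicate numbers crossed between the genotypes 2 passed, and without the variance trend 3 did. The labels do not say what a replicate number shares.

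A second fit asked whether a site moved differently from the same position in the references of other amino acids. Against their mean within each library, deletions rose at 3 isoleucine sites, and fell at none, where 1.05% of all sites passed, 0.332% rose and 0.719% fell. These were positions 1, 5 and 12 of Ile-GAT-1-1, with 3.20, 4.44 and 6.15 points and limma adjusted p of 0.0243, 0.0355 and 0.0139. None of the 3 passed without WT replicate 2, with no transformation of the rate or with the replicate number as a block, where the adjusted p were 0.0761, 0.130 and 0.0597. The sites of AAT, at 1.64, 2.69 and 3.90 points, had limma adjusted p of 0.342, 0.102 and 0.171, and that of TAT, at 2.30 points, had 0.221. In the same fit 0 isoleucine sites passed for the summed error, where 0.553% of all sites did, and 0 for mismatches, where 0.608% did. Their lowest limma adjusted p were 0.151 and 0.0927, with 35 and 33 sites at an unadjusted p under 0.05.

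Counting all 231 isoleucine sites, those that passed included, deletions were higher in KO than in WT at 173, or 74.9%, and at 73.8% of all sites. The libraries did not overlap, with KO higher, at 95 sites (41.1%), where all references had 35.5%, and with KO lower at 15 (6.49%), where they had 7.01%. The median difference was 0.876 points over the isoleucine sites and 0.483 over all sites. Among single references, the median difference of Ile-AAT-8-1 was 1.28 points, the highest of the 48, that of Ile-GAT-1-1 was 0.848, number 10, and that of Ile-TAT-3-1 was 0.434, number 26. Averaged over its positions, Ile-AAT-8-1 had 11.5% and 12.6% deletions in WT and 12.99% and 13.3% in KO, without overlap. In Ile-GAT-1-1 the WT means were 9.88% and 11.6% and both KO means were 11.3%, so the genotypes overlapped.

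By region, the counts are given as a description. In the D arm 46 of 51 isoleucine sites had more deletions in KO, with a median difference of 1.54 points, where the other references had 503 of 717 sites and 0.448 points. In the acceptor stem it was 32 of 42, with a median of 0.783 points, and the other references had 435 of 630 and 0.334 points. In the variable region it was 6 of 15, with a median of -0.463 points, and the other references had 151 of 198 and 0.613 points. The largest decreases without overlap of the libraries lay there and did not pass. Position 44 of Ile-AAT-8-1 had 44.6% and 46.4% in WT and 39.4% and 40.8% in KO, -5.46 points from WT (limma adjusted p = 0.373). Position 45 had differences of -4.68 points in AAT and -3.73 in Ile-GAT-1-1, with adjusted p of 0.482 and 0.534, and of 2.36 points in Ile-TAT-3-1. Position 54 of GAT differed by -3.96 points with overlap.

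**Figure D5:**
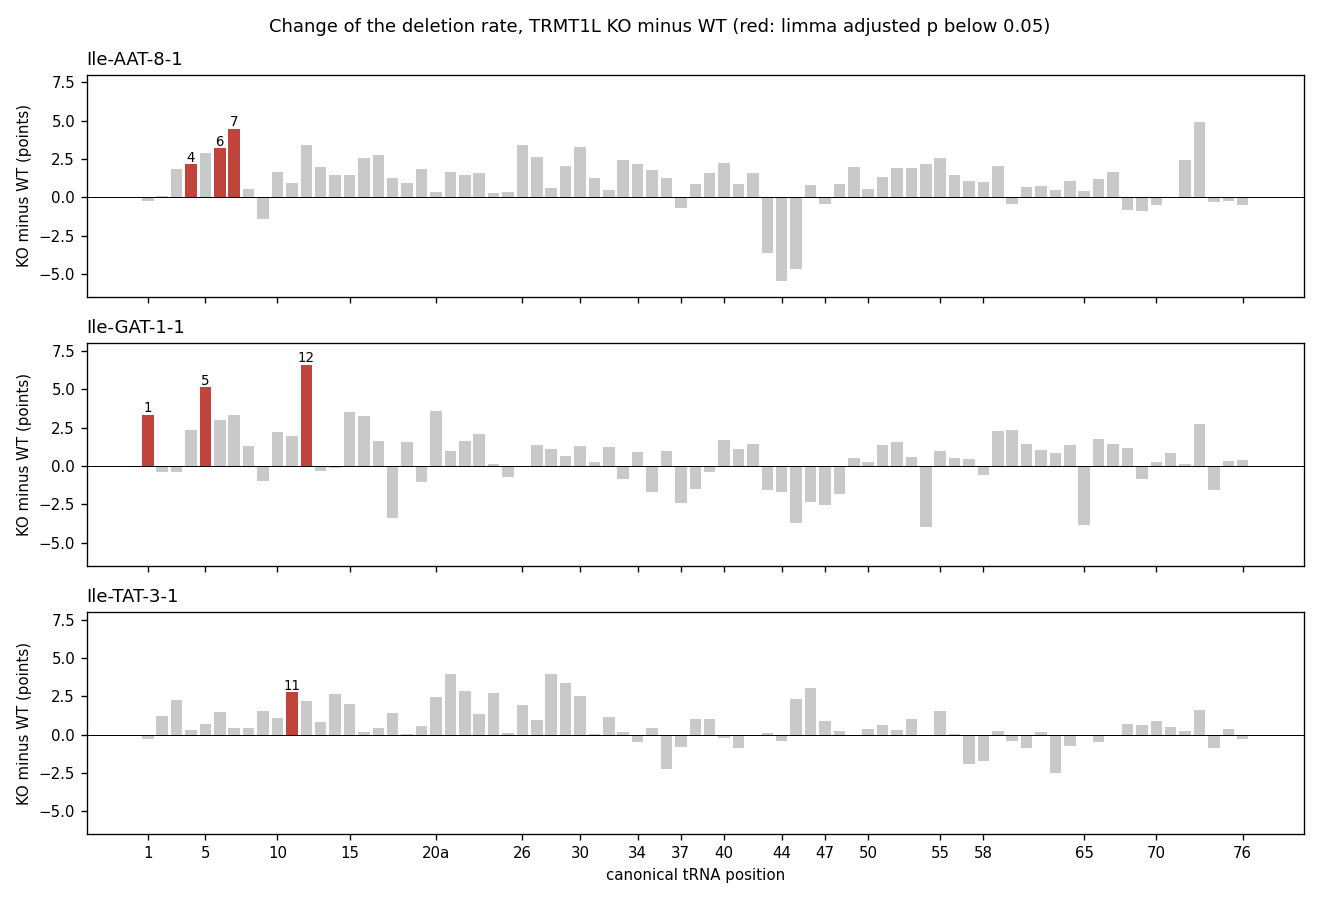
Difference of the mean deletion rate, TRMT1L KO minus WT (percentage points, vertical axis), along the canonical positions (horizontal axis) of the 3 isoleucine references, with 2 libraries per genotype. Red bars are the sites with a limma adjusted p below 0.05, and the bars of positions 43 to 45 point down in Ile-AAT-8-1, to -5.46 points at position 44.

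Positions with well-known modifications were listed as 9, 10, 16, 17, 20, 20a, 26 to 28, 32, 34 to 40, 46 to 50, 54, 55 and 58, and no isoleucine site there passed for any kind of error. Some sites of the other references did. Of their calls only those of the summed error are counted here, which passed at 0.608% of all sites. In the other references the summed error passed at 2 of 56 sites of positions 16 and 17, and at 5 of 76 of positions 20, 20a and 20b. It passed at 2 of 45 of position 26, 1 of 90 of positions 27 and 28, and 1 of 90 of positions 54 and 55. At position 58, the site of methyladenosine, the summed error differed by -1.69 points as the median of the 3 references, with a lowest adjusted p of 0.754. At positions 54 and 55 the median difference was 0.341 points, at position 46 it was 0.817 and at position 37 it was -1.72. At position 34 all 3 isoleucine references were higher in KO, by 1.36 to 2.97 points, with a lowest limma adjusted p of 0.662. The genotypes overlapped there in AAT and TAT, and 32 of the 45 other references were higher too. At position 47 all 3 isoleucine references were lower, by 1.55 to 4.94 points, with a lowest limma adjusted p of 0.523. The genotypes overlapped there in TAT, and 15 of the 27 other references were higher.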

How the data were processed

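Base-calling errors of 4 Nano-tRNAseq libraries, 2 WT and 2 TRMT1L KO, were grouped by genotype as labelled. Per the file headers, the authors deposited each error rate as a fraction of 1 in 12 sheets (mismatch, deletion and insertion in each library) of 48 references by 90 nucleotides, with a sheet of canonical numbers. BWA, SAMtools and bedtools were used per the submitters' processing notes. Not given in the sources used here are their versions, the base caller, the genome build and the read depths, so no counting interval is printed and values are not weighted by depth.

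The sheets' other columns were read by nucleotide number. Nucleotides of the adaptor or without a canonical number were left out, leaving 3621 sites. Rates were tested as arcsine square roots with limma 3.58.1 (lmFit, eBayes with trend and robust settings) in R 4.3.3, with Benjamini-Hochberg adjustment over all sites, and again after subtracting the mean of the references of other amino acids at the position (robust setting, no trend, at least 10 references, 3618 sites). Python 3.11.15 with pandas 2.3.3 and numpy 2.4.6 gave the rest. The fit was tested on simulated data.

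The members, position lists and tests were chosen with earlier results of these data known. Sites named are the 5 set positions, every site past the threshold, the 3 largest non-overlapping differences in each direction and the 5 highest in WT per reference and kind, the latter shown in part. Positions 3, 10, 28, 40, 43, 44, 60 and 68, and the values of the other references at a named site, were singled out after they were seen. Alternatives were another transformation, no variance trend, a filter on low rates, no tRNA ends, centring, each library left out, a replicate block and its crossed form, and a median of the other references.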

Additional observations from a re-analysis of the deposited data

How the results depend on the processing

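Among the 231 isoleucine sites, the 7 deletion calls became 3 without the variance trend, 4 with each library centred on its median and 11 with the replicate number as a block, all increases. Leaving out each library in turn gave 4 to 11. The deletion calls relative to other references, 3 at first, became 0 without a transformation, 1 without the tRNA ends, 0 with the replicate block and 5 with the median of the other references, and ran from 0 to 6 with libraries left out. Of calls that began at 0, mismatch gave 1 with the replicate block. With libraries left out, the summed error gave 0 to 6, mismatch 0 to 5, the relative summed error 0 to 7 and relative mismatch 0 to 5. Insertion stayed at 0 under every alternative run. The labels number the replicates but do not say what a number shares: deviations of same-numbered libraries correlated at -0.251 over 3621 sites, so crossed pairing was added after the data were seen and gave 6 calls for the summed error, 1 for mismatch, 2 for deletion, 4 for the relative summed error, 4 for relative deletion and 2 for relative mismatch. Of the values at single named sites under the alternatives, 325 kept their direction and side of the threshold, 38 lost a call, 15 gained one and none changed sign. A call could be lost only at a site that had passed, and the 325 include values of sites that never passed. In fits without 1 library the lone one is assumed to vary like the other group. All these counts are of isoleucine sites alone. The share of all sites under each alternative is not given, so nothing particular to isoleucine is read from them. The cause of these shifts was not tested. Depth is unknown, so sites with few reads could not be set apart.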
